A study of Homo sapiens with 40 samples.

Results

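Subpolysomal RNA was compared with input RNA in HEK293 cells, a human embryonic kidney-derived line, after transfection with a control siRNA. The members were the 4 subpolysomal libraries and the 4 matching input libraries of this siRNA, taken by their titles, which are 8 of the 40 libraries of the series. Lysates were run on sucrose gradients, and fractions 1 to 5 were pooled as subpolysomal RNA and fractions 6 to 11 as polysomal RNA. Input RNA was total RNA of an aliquot of lysate. The remaining libraries include 4 of polysomal RNA after the control siRNA, whose values are given beside the results. Others hold the same 3 kinds of RNA after CNOT1 siRNA, which lowers the scaffold of the Ccr4-Not deadenylase complex. The rest, from immunoprecipitations and a TNRC6A and TNRC6B knockdown with their controls, are not used here. All cells were of a single line treated with siRNA, and the lysis buffer held cycloheximide. Cultures behind the replicate numbers are not described further, so p-values measure only the spread between these libraries. The question was which RNA classes, coding and noncoding, make up a larger share of the RNA outside polysomes than of the input.

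In a sucrose gradient, RNA sediments by the mass of what is bound to it. An mRNA carrying several ribosomes runs deep, whereas free RNA, small ribonucleoproteins, initiation complexes and mRNAs with a single ribosome stay near the top. Structural RNAs such as 7SL, most long noncoding RNAs (lncRNAs) and translationally silent mRNAs are known to be found there, and mRNAs with short open reading frames hold fewer ribosomes than long ones. Values are CPM, a gene's counts relative to the library total, scaled between libraries by TMM factors, so a higher value means a larger share of that library's RNA and says nothing of the amount of RNA in the fraction. A gene was called when the edgeR adjusted p was below 0.05, and log2 fold changes are subpolysomal minus input.

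CNOT1 itself, the siRNA target of the other arm, stood at 593 to 657 CPM (by library total, without TMM factors) in the control inputs and at 36.2 to 41.1 CPM in the CNOT1 siRNA inputs. The 4 control subpolysomal libraries held 235 to 310.4 CPM and the CNOT1 siRNA ones 91.6 to 104 CPM, so every library used for the main comparison went with its label. The polysomal library labelled control siRNA replicate 3 did not, with 27.4 CPM against 447 to 469 CPM in the other control polysomal libraries, while the polysomal library labelled CNOT1 siRNA replicate 3 held 590 CPM against 22.9 to 31.5 CPM in the others of that siRNA. The control library is left out of the polysomal values below unless stated. Input libraries held 35795122 to 37663901 counts and subpolysomal ones 16517030 to 25817899. Subpolysomal replicates 1 and 2 were more like each other (r = 0.995 across genes on the log2 scale) and replicates 3 and 4 likewise (0.992) than libraries of different pairs (0.975 to 0.985). NEFM and NEFL, neurofilament genes that HEK293 cells are known to express, were abundant in all 8 libraries (NEFM, 1603 to 4475 CPM). Of the other genes looked at for this line, VIM was at 212 to 487 CPM and LIN28B at 140 to 234 CPM. KRT18 (9.46 to 29.2 CPM) and KRT8 (3.04 to 7.22 CPM) were lower. PAX2 was near the floor, at 0.112 to 0.787 CPM, and was not among the genes tested. The summed level of 11 marker genes of other cell types was 6.4 to 9.80 CPM in input and 2.00 to 5.59 CPM in subpolysomal RNA, most of it COL1A1.

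The test covered 16009 genes. Subpolysomal RNA held 6245 of them (39%) at a higher level than input and 5207 (32.5%) at a lower one. The filter on low counts admits a gene that reaches its minimum in either group, and 1270 genes reached it in every subpolysomal but not every input library, against 316 the other way round. Such genes were admitted by the group in which they were higher, so the class values below use the 14090 genes over the minimum in every library of both groups. Among these, 5085 (36.1%) were higher and 5048 (35.8%) lower, with a median log2 fold change of 0.02. These shares are the background for the counts that follow. For each class the spread is given as the SD over the 4 same-numbered library pairs of the class median minus the median of all genes, computed on log2(CPM + 0.5).

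Noncoding classes lay above this background and protein-coding genes slightly below it. Of 12140 protein-coding genes, 3647 rose and 4929 fell, with a median of -0.13. Of 447 lncRNAs, 366 rose and 11 fell, with a median of 1.20, which is 2.29-fold. Of 63 small noncoding RNAs, 61 rose and 2 fell (median 2.08, 4.23-fold), and all 13 mitochondrially encoded RNAs rose (median 3.21, 9.23-fold). Pseudogenes (145 higher and 19 lower of 211, median 1.05) and rows named only by a clone (823 higher and 66 lower of 1148, median 1.06) lay between these groups. The class medians stood apart from the median of all genes by 0.99 ± 0.06 for lncRNA, 1.58 ± 0.10 for small RNA and 2.94 ± 0.23 for mitochondrial RNA (SD, n = 4), against -0.13 ± 0.01 for protein-coding genes. Each of these differences had the same sign in every replicate pair.

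**Figure D1:**
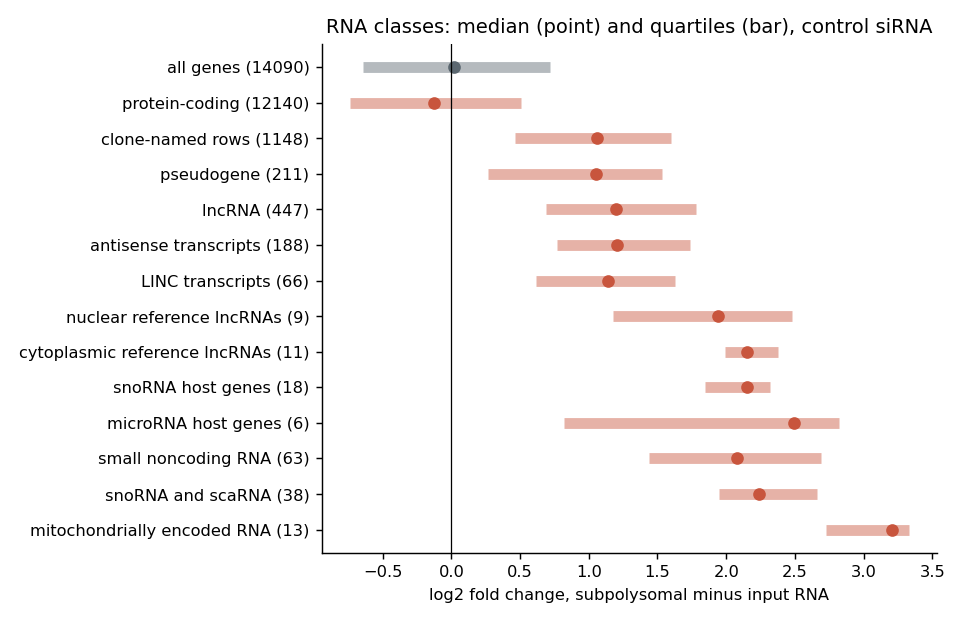
Median (point) and quartiles (bar) of the log2 fold change, subpolysomal minus input RNA, for each RNA class, with the number of genes over the minimum in both groups in brackets. The noncoding classes sit to the right of the quartiles of protein-coding genes or overlap only their upper end, and mitochondrially encoded RNA is farthest right with a median of 3.21.

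Among small RNAs, 7SL, the RNA scaffold of the signal recognition particle, was the most abundant. RN7SL1 was at 61.6, 44.01, 18.8 and 37.5 CPM in the 4 inputs and at 183, 286, 695 and 159.8 CPM in the subpolysomal libraries, an 8.17-fold increase (log2 3.03 ± 0.49 SE, adjusted p = 0.00018). The groups did not overlap, and subpolysomal replicate 3 was the highest of its group by a wide margin, the log2 change without it being 2.36. All 6 rows of 7SL and 7SK over the minimum rose (median 2.73). RN7SL2, a second 7SL gene (chr14:50329271-50329567, minus strand, hg19), followed the same order of libraries and rose 8.61-fold (adjusted p = 0.00011). The 7SL rows share near-identical copies across the genome, so their reads may be divided among rows. In polysomal RNA both were far below input, with log2 changes of -4.41 ± 0.40 for RN7SL1 and -3.72 ± 0.44 for RN7SL2.

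RN7SK, the RNA that holds the elongation factor P-TEFb inactive in the nucleus, rose from 0.83 to 1.79 CPM in the inputs to 2.22, 7.12, 24.2 and 12.8 CPM (log2 3.27 ± 0.60, adjusted p = 0.00048). RPPH1, the RNA subunit of RNase P, rose from 0.398 to 0.651 CPM to 1.74, 3.54, 11.6 and 7.01 CPM (log2 3.45 ± 0.53, adjusted p = 0.00012). RMRP, the related RNA of RNase MRP (chr9:35657751-35658014, minus strand, hg19), passed the test (log2 3.21 ± 0.85, adjusted p = 0.0054), yet its subpolysomal values of 0.545, 2.11, 18.8 and 4.24 CPM overlapped the inputs at 0.481 to 0.838 CPM. Without subpolysomal replicate 3 the log2 change was 2.59 for RN7SK and 1.67 for RMRP, and with replicates 1 and 2 alone RMRP was at 0.82 (adjusted p = 0.18). All 3 of these RNAs, which act in the nucleus or nucleolus, were lowest in subpolysomal replicate 1 and highest in replicate 3. They carry no poly(A) tail, the libraries were made with a kit that selects poly(A) RNA, and the part of RNA outside that selection was not tested.

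Small nucleolar and Cajal body RNAs (snoRNA and scaRNA), guides for modification of ribosomal and spliceosomal RNA, rose together. Of 410 symbols, 187 had a count, 85 were tested and 38 were over the minimum in both groups, and these 38 all rose, with a median of 2.24 (4.72-fold). SNORD4A (chr17:27049600-27049671, plus strand, hg19) was at 0.867, 1.65, 1.31 and 1.17 CPM in input and at 9.27, 11.3, 8.75 and 10.02 CPM in subpolysomal RNA. Its groups were far apart and its libraries even (log2 2.97 ± 0.19, adjusted p = 2.1e-07). It had the largest change of the 38 rows, whereas SNORA66 rose by 1.65 ± 0.17, SNORA55 by 1.56 and SNORD12 by 1.22.

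Most snoRNAs lie in introns of other genes, and their level could be set beside that of the host. Of 49 tested snoRNA or scaRNA rows with a single position in the annotation, 47 lay inside a gene on the same strand. In 14 rows over the minimum with a protein-coding host, the snoRNA had a median log2 change of 2.51 and the host gene 1.29, and the snoRNA was above its host in all 14. SNORA73B rose by 2.84 inside RCC1, a gene at -0.50, and SNORA84 by 2.67 inside IARS, at -0.98. In 7 rows with a noncoding host, from 5 hosts, the medians were 2.08 for the snoRNA and 2.11 for the host, and the snoRNA was above its host in 5 rows. SNORA73B and SNORA84 were picked from this list after their values were seen. A read in an intron can come from the snoRNA, its precursor or unspliced host RNA, and these cannot be told apart in counts per row. For U snRNA, the spliceosomal RNAs, 11 of 1903 symbols were tested and 10 of those reached the minimum in every subpolysomal but not every input library, so no level is given. The Y_RNA row, which pools loci of the Y RNAs, rose by 0.77 ± 0.12.

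The 18 snoRNA host genes that were tested all rose, with a median of 2.15 (4.45-fold) and an SD over replicate pairs of 0.08. Most of the list are noncoding spliced RNAs, of which many begin with a pyrimidine tract, but it also admits the protein-coding gene TAF1D. GAS5 was at 149, 137, 157 and 141 CPM in input and at 675, 736, 706 and 632 CPM in subpolysomal RNA (log2 2.24 ± 0.09, adjusted p = 1.7e-08). SNHG12 had the largest change, from 23.1 to 26.7 CPM in input to 157, 161, 137 and 186 CPM (log2 2.68 ± 0.11), and SNHG5 rose by 2.61 ± 0.12. SNHG7 (1.64 ± 0.14) and SNHG11 (1.65 ± 0.15) rose least. Together these hosts took 0.123% ± 0.003 of counts in input and 0.590% ± 0.027 in subpolysomal RNA (SD, n = 4), and the groups did not overlap.

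LncRNAs known mainly from the nucleus and from the cytoplasm both rose. Of 9 nuclear reference lncRNAs tested, 8 rose (median 1.94). MALAT1, a nuclear speckle RNA (chr11:65265111-65275544, plus strand, hg19), was at 40.3, 44.5, 44.3 and 42.7 CPM in input and at 385, 312, 270.4 and 389 CPM in subpolysomal RNA (log2 2.98 ± 0.13, adjusted p = 2.1e-08). NEAT1, the scaffold of paraspeckles, went from 174 to 207 CPM to 1430.3, 1227, 920.1 and 1361 CPM (log2 2.67 ± 0.14). KCNQ1OT1, an imprinted chromatin-associated transcript, did not pass the test, with 13.1 to 16.5 CPM in input and 9.88 to 14.3 CPM in subpolysomal RNA (log2 -0.25 ± 0.14). These nuclear RNAs were present in the subpolysomal pool although nuclei were removed before the gradient. Whether the aliquot of lysate used as input was taken before or after that step is not stated in the sources used here, and the part of nuclear RNA in the noncoding results was not tested.

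Of the 12 cytoplasmic reference lncRNAs tested, 11 were over the minimum in both groups and all 11 rose, with a median of 2.15. LINC00657, also called NORAD, which binds Pumilio proteins in the cytoplasm, was at 420.0, 432, 419 and 451 CPM in input and at 1766, 2100.3, 1317 and 1648 CPM in subpolysomal RNA (log2 1.99 ± 0.13, adjusted p = 2.5e-07). EPB41L4A-AS1 rose by 2.54 ± 0.11 and DANCR, at the low end, by 1.80 ± 0.08. The cytoplasmic list shares members with the snoRNA hosts. In polysomal RNA, MALAT1 stood at -0.87 ± 0.12, NEAT1 at -1.62 ± 0.12 and LINC00657 at -1.02 ± 0.07 against the same inputs.

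Among other lncRNAs, 161 of 188 antisense transcripts rose and 2 fell (median 1.21). CAPN10-AS1 had 6.53 to 7.62 CPM in input and 53.5, 58.0, 40.4 and 50.5 CPM in subpolysomal RNA (log2 2.80 ± 0.13). MORF4L2-AS1 rose by 2.67 ± 0.18, and the lowest of the list were AGAP2-AS1 (-0.86 ± 0.35) and BAIAP2-AS1 (-0.32 ± 0.18, not past the test) among those at 2 CPM or more. AGAP2-AS1 kept its call without subpolysomal replicate 3 (-1.45) and lost it without any other single library (-0.89 to -0.71), and BAIAP2-AS1 was called without subpolysomal replicate 4 (-0.49). The kit keeps strand, but whether the counting used it is not given in the sources used here, and without strand an antisense transcript cannot be told apart from its partner gene. Of 66 LINC transcripts, 50 rose and 3 fell (median 1.14). LINC00461 rose by 2.84 ± 0.21 and LINC00338 by 2.45 ± 0.09, whereas LINC00342 fell by 1.20 ± 0.21 on the log2 scale. C1orf213, another lncRNA, rose by 3.20 ± 0.23. Exonic length did not order the noncoding rows in a single direction: the median was 1.70 for rows under 500 nt, 0.97 from 500 to below 1000 nt, 1.17 from 1000 to below 2000 nt and 1.19 for 2000 nt or more.

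MicroRNA host genes are long primary transcripts that Drosha cuts in the nucleus, and the mature microRNAs themselves are too short for these libraries. Of 9 hosts tested, 6 were over the minimum in both groups, 5 of which rose and 1 fell. The microRNAs of the 3 hosts whose values are given next are shown so that the reader can tell which regulators they carry. The mature sequences are from RefSeq (GRCh38.p14), all 8 were found there inside the span of the named host, and the seed, bases 2 to 8, is in capitals. miR-17-5p and miR-20a-5p share a seed, and so do miR-19a-3p and miR-19b-3p.
miR-17-5p (MIR17HG): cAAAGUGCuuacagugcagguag
miR-20a-5p (MIR17HG): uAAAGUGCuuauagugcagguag
miR-18a-5p (MIR17HG): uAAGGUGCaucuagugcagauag
miR-19a-3p (MIR17HG): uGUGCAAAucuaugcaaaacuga
miR-19b-3p (MIR17HG): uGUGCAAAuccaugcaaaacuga
miR-92a-3p (MIR17HG): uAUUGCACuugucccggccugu
miR-22-3p (MIR22HG): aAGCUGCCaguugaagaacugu
miR-600 (MIR600HG): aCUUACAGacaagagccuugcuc

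MIR17HG, the host of the miR-17-92 cluster (chr13:91999940-92049846, plus strand, hg19), was at 28.4, 31.3, 35.2 and 31.3 CPM in input and at 271, 253, 191 and 235 CPM in subpolysomal RNA (log2 2.91 ± 0.12, adjusted p = 2.1e-08). In polysomal RNA it was at -2.91 ± 0.14. MIR22HG, with the single microRNA shown above, rose from 2.54 to 4.83 CPM to 23.3, 18.9, 23.0 and 33.9 CPM (log2 2.84 ± 0.24). MIR600HG went the other way, from 18.5, 18.1, 20.3 and 17.2 CPM to 6.00, 5.77, 8.18 and 6.78 CPM, a log2 change of -1.48 ± 0.14 (adjusted p = 2.5e-06). All 3 hosts had groups that did not overlap. MIR4435-1HG was at 0.35 ± 0.13, a call that was not made by DESeq2 (adjusted p = 0.067), without input replicate 1, 2 or 3 or without subpolysomal replicate 1 or 4 (0.26 to 0.33). Of 25 tested microRNA hairpin rows with a single position, 22 lay inside a gene on the same strand and 8 were over the minimum in both groups.

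Mitochondrially encoded RNAs, translated by mitochondrial ribosomes and not by cytosolic polysomes, had the highest class median. The 13 RNAs over the minimum all rose. MT-ND4 (chrM:10760-12137, plus strand) was at 10.6, 8.23, 7.46 and 10.2 CPM in input and at 90.6, 113, 66.5 and 87.0 CPM in subpolysomal RNA (log2 3.29 ± 0.18, adjusted p = 7.0e-08). MT-RNR2, the large mitochondrial ribosomal RNA, rose by 3.49 ± 0.22, MT-ATP6 by 3.41 ± 0.18 and MT-CO1 by 2.47 ± 0.13. The class made up 0.00475% ± 0.00056 of counts in input, 0.0421% ± 0.0062 in subpolysomal RNA and 0.00150% to 0.00199% in the polysomal libraries (replicate 3, 0.00122%). Its share was small in every library, and nuclear copies of mitochondrial genes can share these reads.

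Of 211 pseudogenes, 145 rose and 19 fell. Of these 211, HNRNPA1P16 was the highest (log2 2.86 ± 0.18) and HMGB1P5 the lowest (-2.30 ± 0.18). Of 19 ribosomal protein pseudogenes over the minimum, 16 rose, with a median of 1.64, RPL23P2 by 2.56 ± 0.20. RPL24P2 (0.21 ± 0.25) and RPS18P9 (0.25 ± 0.18) did not pass the test and turned negative with replicates 3 and 4 alone. Pseudogene rows may take reads from the parent genes, which rose as well. Among rows known only by a clone name, RP11-77P6.2 rose from 1.74 to 2.77 CPM to 21.6, 21.8, 13.0 and 18.5 CPM (log2 3.08 ± 0.21). CTD-2031P19.4 rose by 3.23 ± 0.21, whereas RP11-288H12.4 fell by 1.85 ± 0.12 and RP11-145M9.4 by 1.69 ± 0.10 on the log2 scale. A further 68 rows had another gene type or none, of which 30 rose and 21 fell.

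In shares of all counts, noncoding RNA remained a minor part of both kinds of library. Protein-coding genes held 97.4% ± 0.2 of counts in input and 95.6% ± 0.4 in subpolysomal RNA, and 97.8% to 98.2% in the polysomal libraries other than replicate 3 (98.4%). LncRNA rose from 1.64% ± 0.16 to 2.58% ± 0.37. A single abundant row held 66.4% to 72.8% of lncRNA counts in input and 16.4% to 41.7% in subpolysomal RNA, and without it lncRNA went from 0.5004% ± 0.0074 to 1.86% ± 0.10. This row did not rise with its class: its mean share of all counts was lower in subpolysomal RNA than in input. Of the 21 lncRNAs at a mean of 100 CPM or more, 20 rose and 1, at -0.72, was not called. Small noncoding RNA went from 0.0201% ± 0.0013 to 0.0996% ± 0.0252, pseudogenes from 0.135% ± 0.004 to 0.345% ± 0.023 and clone-named rows from 0.460% ± 0.005 to 0.988% ± 0.054 (SD, n = 4). In each of these classes the 4 subpolysomal libraries did not overlap the 4 inputs.

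**Figure D2:**
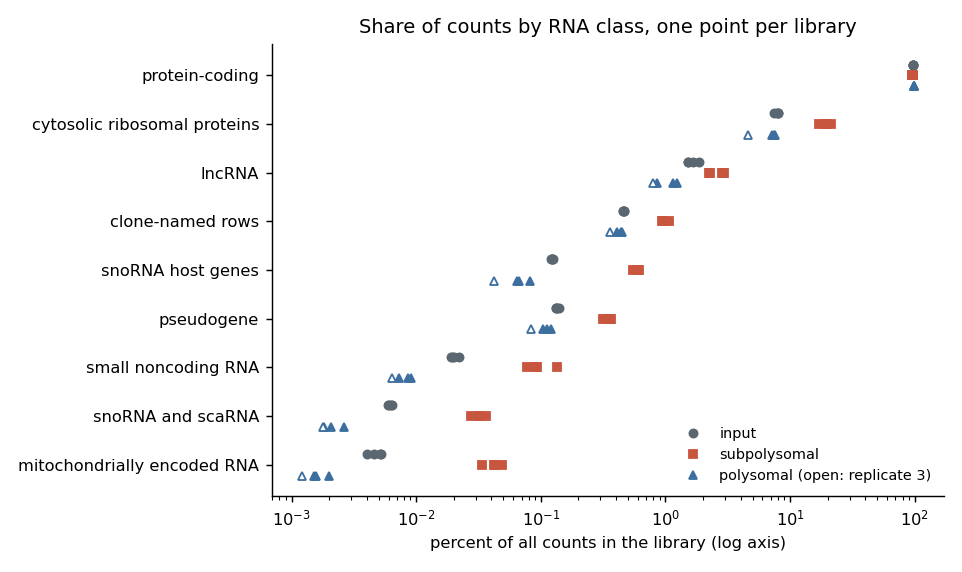
Percent of all counts in each library (log axis) taken by each RNA class or list, for input, subpolysomal and polysomal RNA of control siRNA, with 1 point per library and the polysomal library labelled replicate 3 open. For every noncoding class the subpolysomal points lie to the right of the inputs and the polysomal points to the left, and cytosolic ribosomal protein genes rise from 7.47% to 8.01% in input to 17.1% to 21.2%.

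Within protein-coding RNA, the list with the highest median was that of cytosolic ribosomal proteins. These mRNAs typically begin with a C and a run of pyrimidines, the terminal oligopyrimidine (TOP) motif. Through it, growth signals are known to switch them between polysomes and free particles. Of 83 genes over the minimum, 77 rose and 2 fell, with a median of 1.17 (2.26-fold). The list held 7.82% ± 0.25 of all counts in input and 19.4% ± 1.7 in subpolysomal RNA (SD, n = 4). RPL41, whose open reading frame of 75 nt is the shortest of the list's named members, was at 1439.7, 1309.8, 1380.5 and 1374 CPM in input and at 6822, 8069, 7916 and 8558 CPM in subpolysomal RNA (log2 2.51 ± 0.11, adjusted p = 2.1e-08). RPL36A rose by 2.49 ± 0.11. The genes that fell were RPL26L1, a paralog of RPL26 (-0.996 ± 0.119), and RPL39L, a paralog of RPL39 (-0.56 ± 0.15). RPL36 (0.74 ± 0.34), RPL7L1 (-0.03 ± 0.11), RPS27L (-0.16 ± 0.13) and FAU did not pass the test. RPL39L, RPL36, RPL7L1 and RPS27L were named after their values were seen. FAU, which encodes RPS30 fused to a ubiquitin-like protein, was at -0.26 ± 0.24 (adjusted p = 0.35). It was at 104 and 114 CPM in subpolysomal replicates 1 and 2 but at 257 and 192 CPM in 3 and 4, on both sides of its inputs at 176 to 223 CPM, and without subpolysomal replicate 3 it was called lower (-0.57).

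The first 15 bases of transcripts, from the annotated start in RefSeq (GRCh38.p14), are shown for genes of the ribosomal protein and other TOP lists. These include genes that rose, that fell and that did neither. The uninterrupted pyrimidine run after an initial C is in capitals where it is at least 5 bases long. RPL26L1 and NCL had no such run at the start shown.
RPL41 (rose): CTCTCggccttagcg
RPL36A (rose): CTTTCTTTCCgcgcc
EEF1A1 (rose): CTTTTTCgcaacggg
TPT1 (rose): CTTTTCCgcccgctc
NPM1 (fell): CTTTCCCTggtgtga
FAU (not called): CTCTTTCTCgactcc
RPL26L1 (fell): ggcgaacgaaacgcg
NCL (fell): agtctcgagctctcg

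A start of C followed by 4 bases that are each C or T was looked for at the annotated start on the transcribed strand. It stood at 1429 of 35116 promoter entries (4.07%). Among the ribosomal protein genes, 48 had such a start in at least 1 entry (46 rose, median 1.26), 19 did not (16 rose and 1 fell, median 0.83) and 16 had no entry. Among protein-coding genes outside the TOP lists, 695 had the motif, with 226 higher and 264 lower (median -0.04), and 9192 did not, with 2698 higher and 3832 lower (median -0.15). Both sets of genes outside the TOP lists held more decreases than increases, as did protein-coding genes as a whole. NPM1 and FAU carried runs of 8 and 9 bases without rising.

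The other TOP mRNAs were mixed, with 12 of 21 higher and 3 lower (median 0.36). EEF1A1, the elongation factor that brings aminoacyl-tRNA to the ribosome, was at 15508, 15244, 15860 and 15004 CPM in input and at 37656, 53166, 33172 and 40493 CPM in subpolysomal RNA (log2 1.42 ± 0.15, adjusted p = 8.0e-06). PABPC1, the cytoplasmic poly(A)-binding protein, rose from 1095 to 1193 CPM to 6598, 9727, 4686 and 6922 CPM (log2 2.60 ± 0.19), and TPT1 by 1.53 ± 0.11. NCL and NPM1, nucleolar proteins of ribosome assembly, fell. NCL went from 2459, 2629, 2189 and 2530.0 CPM to 511, 537, 363 and 476 CPM (log2 -2.38 ± 0.13), and NPM1 changed by -1.23 ± 0.10. The list thus held mRNAs that changed in opposite directions.

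Of 437 numbered ZNF genes, which encode zinc finger proteins, many of them repressors of transposable elements, 309 rose and 31 fell (median 0.67, SD over replicate pairs 0.15). ZNF121 was at 107, 114, 113 and 132 CPM in input and at 656, 601, 464 and 578 CPM in subpolysomal RNA (log2 2.30 ± 0.12, adjusted p = 5.8e-08). ZNF767, at 2.14 ± 0.10, is listed without a coding length, and ZNF483 (-1.22 ± 0.21) and ZNF622 (-0.96 ± 0.11) fell. SR splicing factors, the CLK kinases and the glycosyltransferase OGT, known for transcripts whose introns are retained in the nucleus, rose in 11 of 17 genes and fell in 4 (median 0.60). CLK4 rose from 16.1 to 19.2 CPM to 61.6, 56.2, 50.1 and 54.3 CPM (log2 1.65 ± 0.10) and CLK1 by 1.43 ± 0.10, while SRSF1 (-0.86 ± 0.09) and SRSF3 (-0.86 ± 0.09) fell.

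mRNAs under translational control by features of the leader also rose in part. Of 12 stress-response mRNAs with upstream open reading frames, which hold ribosomes back from the main frame, 10 rose and 2 fell (median 0.58). ATF4, the transcription factor of the integrated stress response, was at 321, 324, 354 and 395 CPM in input and at 867, 933, 1145 and 1181 CPM in subpolysomal RNA (log2 1.57 ± 0.12, adjusted p = 7.6e-07). DDIT3 rose by 2.01 ± 0.16 and ATF5 by 0.77 ± 0.14. EPRS, an aminoacyl-tRNA synthetase with a coding length of 4536 nt, fell from 672 to 744 CPM to 169.9, 176, 141 and 114 CPM (log2 -2.26 ± 0.13). SESN2 was at -0.48 ± 0.17, a call lost without input replicate 3 (-0.40). Its call was also lost with TMM factors from protein-coding genes (-0.30), a minimum of 5 CPM (-0.27) and the fit over all 24 gradient libraries (-0.50). In polysomal RNA, ATF4 stood at 0.10 ± 0.12 against input and DDIT3 at -0.13 ± 0.17.

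The ferritin chains, whose mRNAs carry an iron-responsive element that blocks initiation when iron is low, rose as well. FTH1 was at 370.4, 329.9, 317 and 392 CPM in input and at 1236, 1661, 1672 and 1616 CPM in subpolysomal RNA (log2 2.13 ± 0.12, adjusted p = 1.0e-07), and FTL rose by 2.00 ± 0.21. Their polysomal values were -1.62 ± 0.10 and -1.85 ± 0.14. TFRC, the transferrin receptor, whose iron-responsive elements act on stability, fell (-1.11 ± 0.13), as did AZIN1, an antizyme inhibitor (-0.71 ± 0.12). ODC1, the first enzyme of polyamine synthesis, was at 372 to 434 CPM in input and 302 to 496 CPM in subpolysomal RNA and did not pass the test (log2 -0.06 ± 0.13, adjusted p = 0.70), and its sign changed with the scaling. Over the 13 genes of this list 4 rose and 3 fell (median 0.20).

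Of 15 immediate early genes over the minimum, 8 rose and 1 fell (median 0.45). JUND (0.85 ± 0.22) and IER2 (0.45 ± 0.14) were the highest of the members at 10 CPM or more, MYC the lowest (-0.26 ± 0.09) and IER5 not past the test (-0.12 ± 0.11), and in all 4 the libraries of the groups overlapped. The MYC call was lost with the library total as scaling (adjusted p = 0.069) and without input replicate 1, 2 or 3 (-0.27 to -0.24). It was also lost with TMM factors from protein-coding genes (-0.082), a minimum of 5 CPM (-0.058) and the fit over all 24 gradient libraries (-0.28). The IER2 call was lost with no filter (0.26) and without input replicate 2 (0.36) or subpolysomal replicate 4 (0.37). IER5 was called lower without subpolysomal replicate 4 (-0.25). Of 14 replication-dependent histone genes, whose mRNAs end in a stem-loop in place of poly(A), 7 rose and 2 fell (median 0.61). HIST1H2BK, the only member above 10 CPM and known for a polyadenylated form, fell (-0.64 ± 0.13). The protein-coding genes with the largest rises at 10 CPM or more were SLC25A23, a mitochondrial carrier, from 89.5 to 96.3 CPM to 517, 666, 614 and 657 CPM (log2 2.73 ± 0.10), and KRTCAP2, a subunit linked to oligosaccharyltransferase (2.67 ± 0.13).

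**Figure D3:**
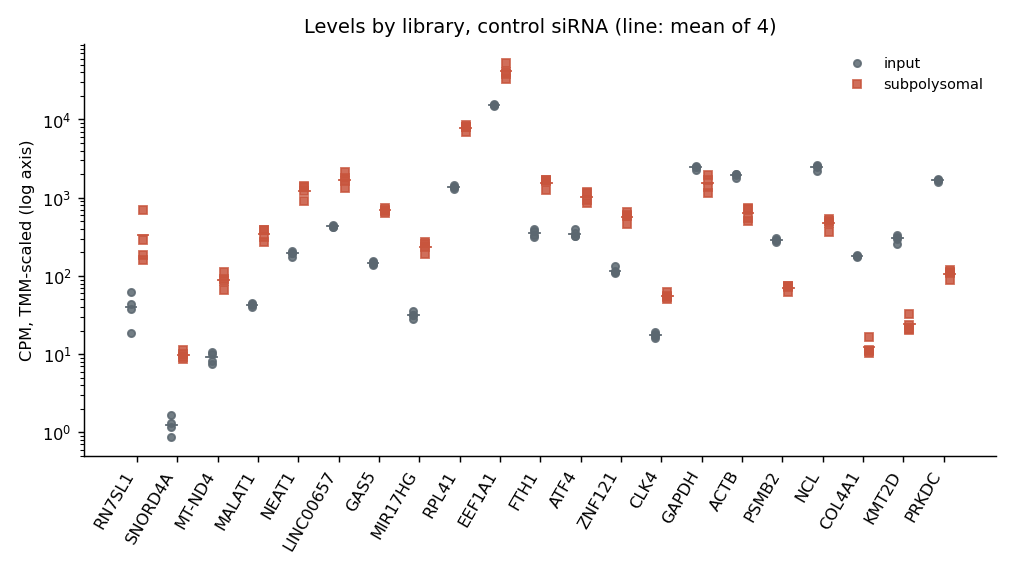
CPM (log axis, TMM-scaled) of selected RNAs in the 4 input and 4 subpolysomal libraries of control siRNA, with a line at each mean. RN7SL1 to CLK4 are higher in subpolysomal RNA with no overlap, GAPDH to PRKDC are lower with no overlap, and RN7SL1 has the widest spread, from 159.8 to 695 CPM.

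Several lists of housekeeping and large structural proteins had negative medians, to different degrees. Of 35 proteasome genes, 30 fell and 4 rose, with a median of -0.98, which is 1.97-fold lower, and an SD over replicate pairs of 0.09. PSMB2, a subunit of the proteolytic core, was at 291, 302, 275 and 284 CPM in input and at 62.2, 75.1, 73.3 and 72.1 CPM in subpolysomal RNA (log2 -2.03 ± 0.09, adjusted p = 2.1e-08), and PSMD1 changed by -1.96 ± 0.11. The highest of the list, PSMC3IP (1.90 ± 0.08), is a recombination factor that interacts with a proteasome subunit and is no subunit itself, and PSMD9 rose by 0.70 ± 0.12. In polysomal RNA the list had a median of 0.29. Nuclear-encoded respiratory chain genes fell in 42 of 83 and rose in 16 (median -0.38), from NDUFB6 at -2.10 ± 0.13 and UQCRC1 at -1.67 ± 0.14 to NDUFA11 at 1.28 ± 0.30 and NDUFAF6 at 1.33 ± 0.09. The list was taken by symbol and so admits NDUFAF6, which is an assembly factor and no subunit. Mitochondrial ribosomal protein genes fell in 33 of 77 and rose in 18 (median -0.12), with MRPL3 (-1.54 ± 0.11) and MRPL19 (-1.52 ± 0.11) at one end and MRPS25 (1.53 ± 0.08) and MRPL46 (1.42 ± 0.15) at the other, among genes at 10 CPM or more. These 2 lists thus lay closer to the background than the proteasome or the cytosolic ribosome. Of all protein-coding genes over the minimum, 40.6% fell (median -0.13). The mitochondrial ribosomal protein list, with 42.9% lower, was thus near the level of protein-coding genes as a whole.

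**Figure D4:**
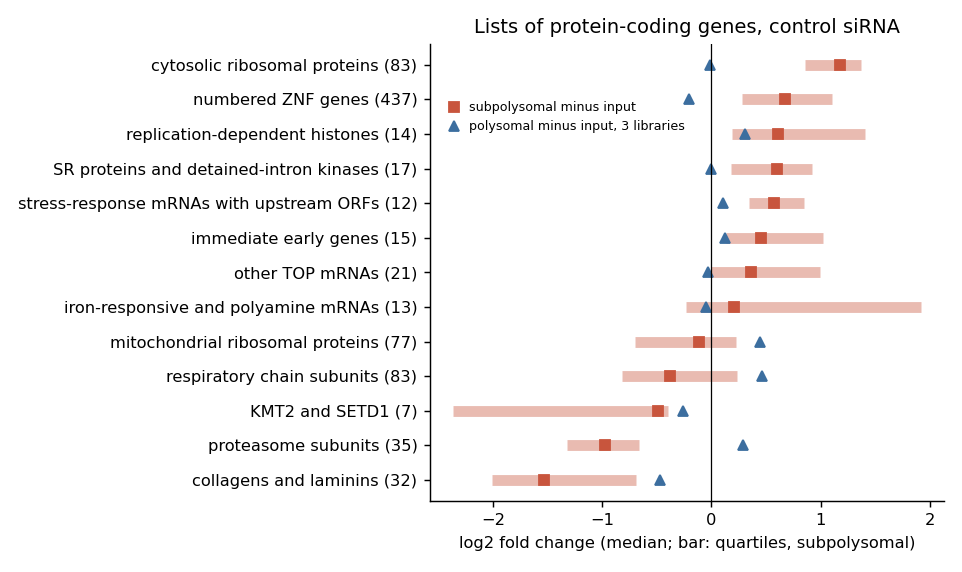
Median log2 fold change over input (points) for lists of protein-coding genes, in subpolysomal RNA (squares, with quartiles as bars) and in polysomal RNA without replicate 3 (triangles), with the number of genes over the minimum in brackets. Ribosomal protein genes have the highest subpolysomal median, 1.17, and a polysomal median of -0.01, and proteasome genes are at -0.98 and 0.29.

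Collagens and laminins, long secreted proteins of the extracellular matrix whose mRNAs are translated at the endoplasmic reticulum, fell in 24 of 32 genes, and the other 8 did not pass the test (median -1.54, 2.90-fold lower). COL4A1, a basement membrane collagen (chr13:110801310-110959504, minus strand, hg19), was at 187, 176, 177 and 180.3 CPM in input and at 11.1, 10.4, 16.8 and 11.2 CPM in subpolysomal RNA, a 14.6-fold decrease (log2 -3.87 ± 0.15, adjusted p = 1.7e-08). COL4A2 changed by -3.36 ± 0.29. LAMC3 (-0.47 ± 0.37) and COL6A1 (-0.55 ± 0.33) were not past the test, but were called without subpolysomal replicate 3, at -0.93 and -0.88. Of the 7 KMT2 and SETD1 histone methyltransferase genes, 4 fell (57.1%, median -0.49). This was near the share among all genes with a coding length of 2400 nt or more, of which 56.0% fell (median -0.48). KMT2D, with a coding length of 16611 nt, went from 314, 337, 299.7 and 254 CPM to 20.1, 20.8, 32.3 and 23.4 CPM (log2 -3.64 ± 0.16) and KMT2C changed by -2.48 ± 0.11, while KMT2B, at -0.24 ± 0.27, did not pass the test but did so without subpolysomal replicate 3 (-0.60).

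The 10 largest decreases among genes at 10 CPM or more were all in mRNAs with long coding regions, between 5007 nt (COL4A1) and 16788 nt (MDN1). Besides the collagens and KMT2D these were EPPK1 (-4.02 ± 0.24), PRKDC (-3.97 ± 0.11), DYNC1H1 (-3.63 ± 0.17), FAT1 (-3.52 ± 0.21), MDN1 (-3.37 ± 0.13), UBR4 (-3.16 ± 0.11) and NOTCH2 (-3.11 ± 0.12). PRKDC, the catalytic subunit of DNA-dependent protein kinase, was at 1731, 1691, 1682 and 1600.4 CPM in input and at 113, 107, 119 and 88.1 CPM in subpolysomal RNA. In polysomal RNA these mRNAs were below input too, by 2.74 ± 0.10 for PRKDC, 2.69 for DYNC1H1, the heavy chain of cytoplasmic dynein, and 0.61 ± 0.07 for COL4A1 on the log2 scale. Their loss from the subpolysomal pool was therefore not matched by a gain in the polysomal one, and the part of RNA breakage or recovery from the gradient was not tested.

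Across all protein-coding genes the median fell with coding length. It was 0.44 for genes under 300 nt (118 higher and 41 lower of 222), 0.08 from 300 to below 600 nt, -0.01 from 600 to below 1200 nt, -0.04 from 1200 to below 2400 nt and -0.48 for 2400 nt or more (428 higher and 1581 lower of 2823). Genes at a mean of 10 to 100 CPM had the same order at the ends, 0.33 and -0.44, so these ends differed within a single band of abundance as well. The polysomal medians in the same bins were 0.26, 0.36, 0.22, 0.00 and -0.27, so mRNAs of 2400 nt or more were below input in both fractions. Abundance moved with the result as well: among protein-coding genes over the minimum the median was 0.29 under 1 CPM, 0.17 at 1 to 10 CPM, -0.14 at 10 to 100 CPM and -0.52 at 100 CPM or more. For lncRNAs the order was the reverse, with 0.58, 1.20, 1.38 and 2.17 in the same bands, so lncRNAs lay above protein-coding genes in each. The bands were set by the mean over all 8 libraries. A rise in subpolysomal RNA itself moves a gene to a higher band, so the order across bands is not independent of the change. Of abundant cytoskeletal and metabolic mRNAs, ACTB went from 2024, 1986, 1923 and 1762 CPM to 497, 552, 718 and 749 CPM (log2 -1.61 ± 0.14) and GAPDH changed by -0.67 ± 0.14.

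**Figure D5:**
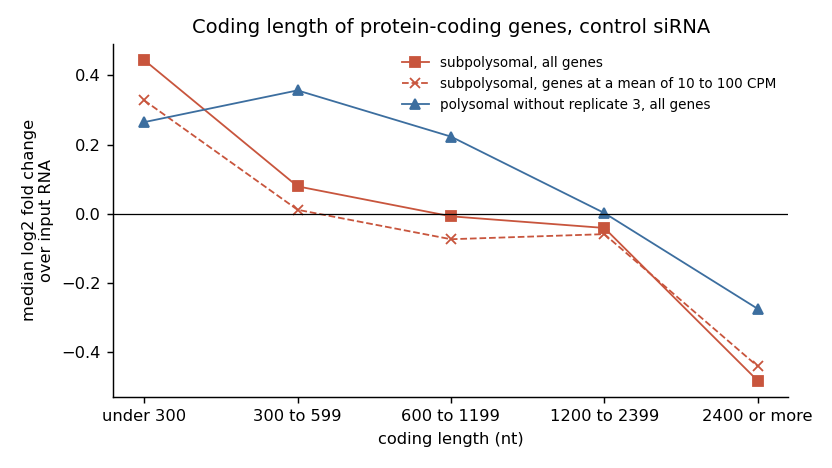
Median log2 fold change over input by coding length of protein-coding genes, in subpolysomal RNA over all genes (squares) and over genes at a mean of 10 to 100 CPM (crosses), and in polysomal RNA without replicate 3 (triangles). The subpolysomal medians run from 0.44 under 300 nt to -0.48 at 2400 nt or more, where the polysomal median is -0.27.

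The same comparison in CNOT1 siRNA, with 8 libraries that share none with the control ones, called 6181 of 16184 genes higher (38.2%) and 5702 lower (35.2%). Over the genes counted above and tested in both, class medians were 1.15 for lncRNA (375 higher and 12 lower of 447), 1.80 for small noncoding RNA (59 higher of 63), 3.09 for mitochondrially encoded RNA (13 higher of 13), 0.91 for pseudogenes and -0.17 for protein-coding genes. snoRNA hosts (2.16) and snoRNAs (2.14) also lay near their control values. The 6 rows of 7SL and 7SK had a lower median there, 1.68 (5 higher) against 2.73 with control siRNA. RPPH1 and RMRP had a median of 1.39 (1 of 2 higher) against 3.33. RN7SK was at 1.19, and RMRP, at 1.01, did not pass the test (adjusted p = 0.063). The cytosolic ribosomal protein list had a median of 0.72 (74 higher and 2 lower of 83) and took 11.3% ± 0.6 of counts in subpolysomal RNA against 5.48% ± 0.21 in input, and other TOP mRNAs were at -0.04. ODC1 was at 0.94 there. Differences between the siRNAs were not tested. Across 15589 genes the fold changes under the 2 siRNAs had r = 0.922, a description over genes that are not independent.

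Against the same inputs, polysomal RNA had medians of -0.23 for lncRNA, -1.56 for small noncoding RNA, -2.06 for mitochondrially encoded RNA, -0.29 for pseudogenes and 0.04 for protein-coding genes without replicate 3. With that library they were -0.31, -1.70, -2.21, -0.33 and 0.08. These values share the inputs with the subpolysomal ones, were scaled in a separate fit and are no independent support for them. The snoRNA hosts were at -0.76 and snoRNAs at -1.76. Of the lncRNAs named above, SNHG11 (-0.03 ± 0.14), SNHG7 (-0.11 ± 0.09) and DANCR (-0.13 ± 0.07) were near input level in polysomal RNA, and MIR600HG, which fell in subpolysomal RNA, was at 0.31 ± 0.09.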

How the data were processed

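Polyadenylated RNA of input, subpolysomal and polysomal samples had been sequenced by the authors on stranded libraries, aligned to hg19 with TopHat2 and counted per gene with HTSeq. Tools per the labels also include bcl2fastq 2.0, and other versions are not given in the sources used here. The deposited values are raw read counts per gene symbol. Symbols were matched to GENCODE 44 on GRCh37 by name (33529 of 55765) or by an older name (1926), the other 20310 having no match.

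Counts were filtered (filterByExpr, at least 10 counts at the median library size, 0.325 CPM, in 4 libraries), scaled by TMM and tested with the two-sided quasi-likelihood F-test of edgeR 4.0.16 in R 4.3.3, with Benjamini-Hochberg adjustment over all genes tested. SEs are the log2 fold change over the square root of F. DESeq2 1.42.0 was an alternative. The 8 libraries of the groups compared were fitted alone. Summaries used Python 3.11.15 with pandas 2.3.3. The fits were tested on simulated data.

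Classes followed the gene type of the annotation, and lists followed symbols. The members, lists and tests were chosen with earlier results of these data known. Named genes were the 10 largest changes in each direction without overlap at 10 CPM or more, the 2 highest and 2 lowest of each list (10 CPM or more, 2 CPM or more for noncoding lists) and a fixed set of reference genes. A class was given counts and a median, with no test. Sequences came from RefSeq tables of GRCh38.p14, and coordinates from GRCh37. One merged table of immunoprecipitation libraries was not used.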

Additional observations from a re-analysis of the deposited data

Results flagged for a closer look

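Over 324 groups of 4 libraries (127 genes and the class shares), 11 (3.4%) held a library far from the other 3, by Dixon's 95% criterion for a gap within the range, where chance gives about 5%. Subpolysomal replicate 3 was such a library for COL4A1 (16.8 CPM, the others 10.4 to 11.2), KCNQ1OT1 (9.88 CPM, the others 13.9 to 14.3), the proteasome share (0.309% of counts, the others 0.334% to 0.336%) and the respiratory chain share (0.83%, the others 0.703% to 0.713%). Subpolysomal replicate 4 stood apart for IER5 (81.8 CPM, the others 61.2 to 62.3) and replicate 1 for FTH1 (1236 CPM, the others 1616 to 1672). Among the inputs, replicate 3 stood apart for XXyac-YRM2039.2 (3.13 CPM, the others 2.06 to 2.22) and MORF4L2-AS1 (2.78 CPM, the others 3.80 to 3.96), replicate 2 for KCNQ1OT1 (13.1 CPM, the others 16.0 to 16.5), and replicate 4 for KMT2B (41.8 CPM, the others 54.1 to 54.6) and EPRS (672 CPM, the others 732 to 744).

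CNOT1 moved in opposite directions under the 2 siRNAs, with every library on its side: subpolysomal minus input was -1.25 on the log2 scale with control siRNA and 1.05 with CNOT1 siRNA, which targets this gene. The difference was not tested.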

How the results depend on the processing

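Counts of genes higher and lower stayed within 1.5 times of 6245 and 5207 under every alternative: 5699 and 5568 with DESeq2, 5827 and 5599 with RLE factors, 6594 and 4863 with the library total, 7334 and 4271 with factors from protein-coding genes, 6434 and 6226 with no filter, 4264 and 3709 with a mean of at least 5 CPM, 6286 and 5107 over all 24 gradient libraries, and 5849 to 6509 and 4945 to 5581 without each library in turn. Factors from protein-coding genes moved the median of all genes from 0.12 to 0.30. Same-numbered libraries did not deviate together (r = -0.08, 0.11, 0.40 and -0.14), and the fit with the replicate block called 6119 and 5181. Of the genes named, the block changed the calls of MYC (-0.26, adjusted p = 0.056) and COL6A1 (-0.71, adjusted p = 0.046). The CNOT1 siRNA counts without each library were 5889 to 6404 and 5362 to 5981. Chosen after seeing the data, replicates 1 and 2 alone gave 6077 and 5913, and replicates 3 and 4 alone 5436 and 5611. Class medians relative to all genes moved by more than their SD with a minimum of 5 CPM (clone-named rows 1.38, lncRNA 1.55, protein-coding -0.049, pseudogenes 1.61, small RNA 2.84, from 1.04, 1.18, -0.14, 1.03 and 2.06), with replicates 1 and 2 (clone-named 1.13, lncRNA 1.27, protein-coding -0.13) and with replicates 3 and 4 (clone-named 0.98, pseudogenes 0.97), none with a change of sign, and the cause was not tested. Without each library they ranged from 1.01 to 1.07 for clone-named rows, 1.16 to 1.22 for lncRNA, 3.05 to 3.31 for mitochondrial RNA, 0.16 to 0.26 for other rows, -0.15 to -0.14 for protein-coding genes, 0.99 to 1.09 for pseudogenes and 2.02 to 2.14 for small RNA. Polysomal medians relative to all genes without replicate 3 were -0.20 for clone-named rows, -0.25 for lncRNA, -2.07 for mitochondrial RNA, -0.056 for other rows, 0.03 for protein-coding genes, -0.30 for pseudogenes and -1.58 for small RNA. Subpolysomal shares without each library were 0.961% to 1.00%, 2.46% to 2.69%, 0.0398% to 0.0448%, 0.313% to 0.317%, 95.5% to 95.8%, 0.337% to 0.355% and 0.0875% to 0.107% in that order, and leaving mitochondrial genes out of the denominator moved none by its SD. The lncRNA share without its most abundant row was 1.86%. Signs turned with 5 CPM for the lists of mitochondrial ribosomal proteins (0.0092) and coding lengths from 1200 to below 2400 nt (0.028), and with replicates 3 and 4 for iron-responsive and polyamine mRNAs (-0.15), KMT2B (0.18), LAMC3 (0.011), FAU (0.028), RPL24P2 (-0.23) and RPS18P9 (-0.18). IER5 turned with factors from protein-coding genes (0.060) and 5 CPM (0.084), and ODC1 with the library total (0.00059), these factors (0.12) and 5 CPM (0.14). Without each library RPL24P2 ranged from -0.053 to 0.38 and ODC1 from -0.20 to 0.033. None of these genes had been called. Rows of low CPM rest on few counts, and counts per symbol cannot separate near-identical copies.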
